A study of Sus scrofa with 8 samples.

Results

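The KLF genes encode Krüppel-like factors, transcription factors that bind GC-rich and CACCC-containing DNA through zinc fingers at their carboxyl end. Their amino-terminal parts differ and set what each factor does. KLF2, KLF4, KLF5, KLF6 and KLF7 mostly activate transcription, KLF3 represses it through the corepressor CtBP, and KLF9, KLF10, KLF11 and KLF13 bind the corepressor SIN3A. In epithelia the family is known for the balance between dividing and maturing cells, with KLF5 linked to proliferating and KLF4 to maturing layers. Described here are 10 KLF genes (KLF2, KLF3, KLF4, KLF5, KLF6, KLF7, KLF9, KLF10, KLF11 and KLF13) of the 30282 genes in the count table, chosen by gene symbol. Each symbol matched 1 gene identifier, and all 10 genes passed the expression filter that left 14475 genes for testing.

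The RNA came from porcine pancreatic ductal organoids (PPDO), epithelial cultures grown in a basement membrane extract from ducts of German landrace pigs. There were 4 lines, Em from an embryonic pancreas, EPN1 and EPN2 from early postnatal pancreata and LPN from a late postnatal pancreas, and which of them came from wild-type and which from INS-eGFP pigs was not given in the sources used here. Organoids of every line spent a week in complete medium, the control, or in differentiation medium. There is 1 library for each line and medium, 8 in all and 4 for a medium. Complete medium held EGF, FGF10, gastrin, prostaglandin E2, WNT3a, noggin and R-spondin1, all of which differentiation medium lacked. For maintenance of PPDO, the paper states, an L-WRN conditioned medium supplement replaced the added WNT3a, noggin and R-spondin1. Which form these libraries received was not given in the sources used here. The groups follow the sample titles, while the treatment label names the same medium for all 8 libraries. Both media contained the N2 and B27 supplements, the TGF-β receptor inhibitor A83-01, the ROCK inhibitor Y-27632, nicotinamide and N-acetyl-L-cysteine. A line's own difference therefore has no replicate, and stage cannot be told apart from line.

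Library totals ranged from 40553593 to 47910657 counts. Expression is given as CPM, counts scaled to the same library size by TMM, and a count of 0 would allow 0.0626 to 0.0740 CPM. The scarcest KLF value was 90 counts of KLF9 in Em in differentiation medium, 1.86 CPM with an exact Clopper-Pearson 95% interval of 1.49 to 2.28 that covers counting error only. Gene lengths were not available, so levels are compared between libraries and not between genes. All 9 duct marker genes listed were expressed, and their summed level was 6641 to 9150 CPM in complete medium and 3830 to 14196 CPM in the other. The lowest of these sums belonged to EPN2 in differentiation medium, where KRT8 was at 425 CPM against 1458 to 4902 CPM in the other 3 lines. Marker sums for stroma stayed between 0.949 and 9.54 CPM, and those for endothelium between 16.3 and 44.8 CPM. KDR reached 33.8 CPM, PECAM1 17.6 CPM and TEK 12.4 CPM (in EPN1 in differentiation medium), while CDH5 had 0 counts in 7 of the 8 libraries. The immune marker CD3E had at most 0.0216 CPM and PTPRC at most 2.16 CPM, while CD14 reached 70.0 CPM, CD68 49.7 CPM and LYZ 9.02 CPM. The immune sum of 1047 to 1849 CPM was carried by CD79A. Acinar marker sums were at most 1.78 CPM, and PNLIP and PTF1A were at 0 in every library. Endocrine marker sums were at most 2.40 CPM in complete medium and reached 21.3 CPM in Em in differentiation medium, mostly through GCG at 17.2 CPM. The part of the marker differences in the KLF values was not tested. In bulk RNA, fewer cells of a type and less RNA per cell cannot be told apart.

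The comparison of the media asks which KLF genes differ after the growth factors of complete medium are withdrawn. KLF3 was higher in differentiation medium, by 1.53-fold, and KLF9 and KLF13 were lower, at 0.336 and 0.612 of their level in complete medium. KLF4 was higher (1.52-fold) and KLF10 and KLF11 were lower (0.788 and 0.799 of their level) in each of the 4 lines, and did not pass either edgeR test. KLF5 was close to its level in complete medium in every line, and KLF2, KLF6 and KLF7 moved in different directions in different lines. The edgeR quasi-likelihood test that ignored the line left 0 of the 10 genes with an adjusted p under 0.05, against 6.97% of all genes tested (2.87% called higher and 4.1% called lower). Without adjustment 3 were under 0.05, KLF3, KLF9 and KLF13, against 27.3%. With the line as a block, which compares the media within each line, 3 of the 10 passed, KLF3 higher and KLF9 and KLF13 lower, against 19.9% of all genes tested. By direction, 9.48% of the tested genes passed as higher and 10.4% as lower in that fit, and without adjustment KLF4 and KLF10 joined the 3, against 39.7%. DESeq2 without the line gave 2 genes, KLF3 and KLF9, against 19.9%, and DESeq2 with the line as a block gave 4, KLF3, KLF4, KLF9 and KLF13, against 37.3%. Of the 10 genes, 6 moved the same way in 4 of 4 lines, against 48.1% of the tested genes, and for 2 the media did not overlap, against 18.8%. Read against these shares, the counts do not set the 10 genes apart from other genes.

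**Figure D1:**
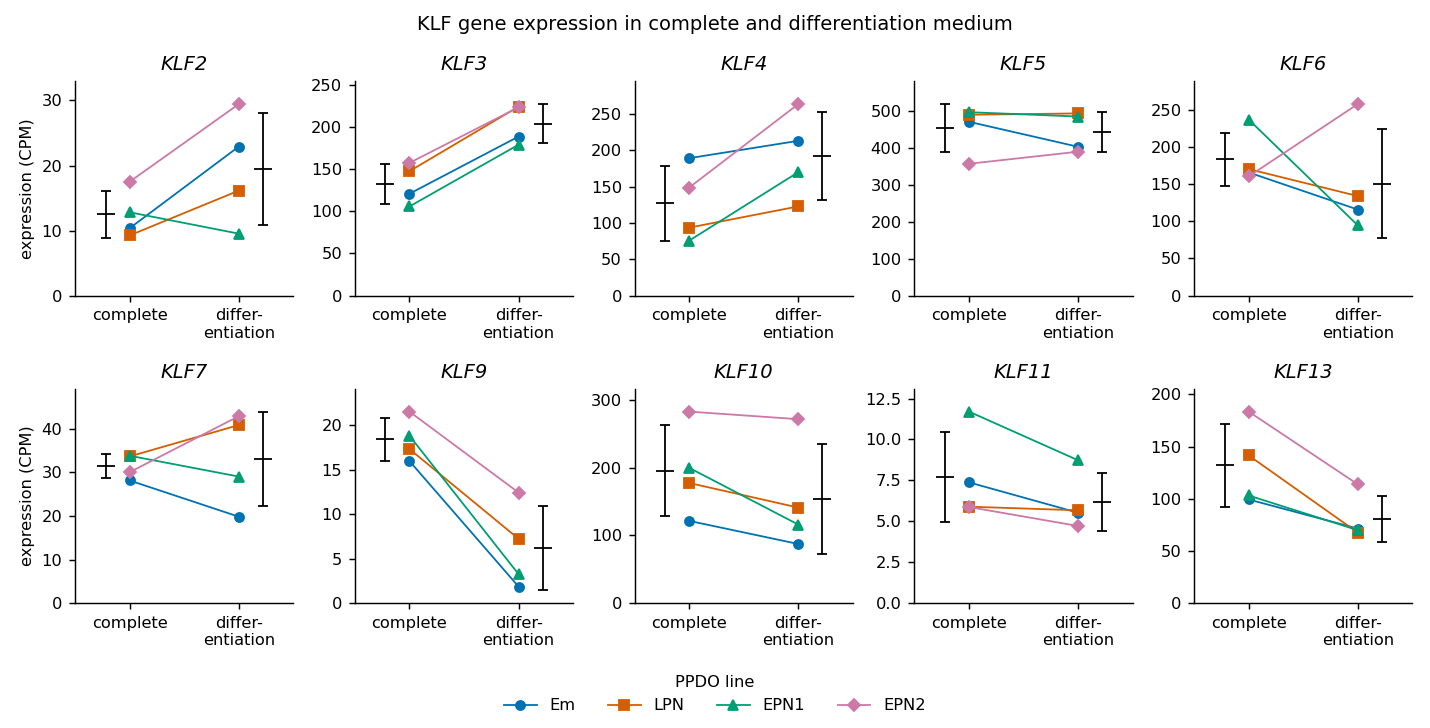
Expression in CPM (y axis from 0, a separate scale for each gene) in complete and differentiation medium for the 10 KLF genes. Colored points joined by a line are the 2 libraries of a PPDO line, and black bars are the mean ± SD over 4 lines. KLF3 lies above 179 CPM in all 4 libraries in differentiation medium and below 158 CPM in complete medium, and KLF9 separates the media in the other direction.

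KLF3 recruits CtBP and represses many genes, in red blood cell precursors among other cells. The gene (ENSSSCG00000036488) lies at chr8:30024978-30060981 in the Sscrofa11.1 assembly. In complete medium it had 120.9 CPM in Em, 148 in LPN, 106 in EPN1 and 157 in EPN2. In differentiation medium the values were 189, 224, 179 and 223 CPM in the same order. The lowest library in differentiation medium was above the highest in complete medium, which was so for 8.82% of the tested genes. The means were 133 ± 23.8 and 204 ± 23.4 CPM (SD, n = 4). Within the lines the log2 difference was 0.64 in Em, 0.60 in LPN, 0.76 in EPN1 and 0.51 in EPN2. The spread between lines was thus small against the difference (mean 0.63, SD 0.11). The log2 fold change was 0.62 ± 0.16 (SE) when the line was ignored, with an edgeR adjusted p of 0.0574. Blocked by line it was 0.63 ± 0.09, with an adjusted p of 0.0167. With LPN left out the blocked difference was 0.63 (adjusted p = 0.105 from edgeR) and with EPN1 left out 0.58 (adjusted p = 0.0813), in fits where 22 and 8 genes of all tested passed.

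KLF9 is a repressor with SIN3A whose gene is known to be induced by glucocorticoids and thyroid hormone. It (ENSSSCG00000021646) lies at chr1:223723613-223747661. In complete medium the 4 lines were alike, with 16.0 CPM in Em, 17.3 in LPN, 18.8 in EPN1 and 21.6 in EPN2. In differentiation medium they were at 1.86, 7.24, 3.26 and 12.4 CPM in the same order. Every library in differentiation medium was below every library in complete medium, which was so for 9.96% of the tested genes. The means were 18.4 ± 2.38 and 6.20 ± 4.75 CPM (SD, n = 4). The differences were unequal: 3.11 on the log2 scale in Em and 2.53 in EPN1, but 1.26 in LPN and 0.79 in EPN2, each lower in differentiation medium. Between its highest and its lowest library the gene varied 11.6-fold, the widest range of the 10. The log2 fold change was -1.57 ± 0.54 (SE) when the line was ignored, with an edgeR adjusted p of 0.112. Blocked by line it was -1.91 ± 0.44, with an adjusted p of 0.0388. The blocked test passed with EPN2 left out (-2.29, adjusted p = 0.0276) and did not with Em (-1.49, 0.0740), LPN (-2.15, 0.114) or EPN1 (-1.68, 0.145) left out. Of all tested genes, those fits called 2989 without EPN2, 1730 without Em, 22 without LPN and 8 without EPN1.

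KLF13, known as a regulator of chemokine expression in T cells, is close to KLF9 in its DNA-binding part. The gene (ENSSSCG00000026006) lies at chr1:143499136-143540233. Its values in complete medium were 99.4 CPM in Em, 142 in LPN, 103 in EPN1 and 184 in EPN2. They were 71.5, 67.5, 69.9 and 114 CPM in differentiation medium, so that the means were 132 ± 39.4 and 80.7 ± 22.2 CPM (SD, n = 4). Each line was lower in differentiation medium, by 0.48 in Em, 1.07 in LPN, 0.56 in EPN1 and 0.69 in EPN2 on the log2 scale, while the media overlapped because EPN2 in differentiation medium was above Em and EPN1 in complete medium. Ignoring the line, edgeR gave a log2 fold change of -0.71 ± 0.26 (SE) and an adjusted p of 0.126. Blocked by line it was -0.70 ± 0.13, with an adjusted p of 0.0233. The blocked test did not pass with LPN left out (-0.58, adjusted p = 0.110) or with EPN1 left out (-0.74, adjusted p = 0.0911). Those fits called 22 and 8 genes of all tested.

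KLF10 and KLF11 were first described as early genes induced by TGF-β, and KLF11 is known in islets as an activator of PDX1 and insulin. KLF10 (ENSSSCG00000027480, chr4:34430132-34435990) had 121.5 CPM in Em, 177 in LPN, 199.8 in EPN1 and 283 in EPN2 in complete medium. It had 87.3, 141, 116 and 272 CPM in differentiation medium. EPN2 was highest and Em lowest in both media, and all 4 lines were lower in differentiation medium, EPN2 by only 0.06 on the log2 scale and the others by 0.33 to 0.79. Blocked by line the log2 fold change was -0.41 (95% interval -0.77 to -0.06, adjusted p = 0.0903 from edgeR), and it was -0.34 (-1.23 to 0.54, adjusted p = 0.599) when the line was ignored. KLF11 (ENSSSCG00000038643, chr3:126419011-126429890) was at 7.38 CPM in Em, 5.90 in LPN, 11.7 in EPN1 and 5.88 in EPN2 in complete medium. In differentiation medium it was at 5.52, 5.67, 8.73 and 4.71 CPM. EPN1 was highest in both media, and the log2 difference of LPN was -0.06 where the others were between -0.32 and -0.42. The blocked log2 fold change of KLF11 was -0.30 (95% interval -0.73 to 0.12, adjusted p = 0.236 from edgeR). All 4 genes described as SIN3A partners were thus lower in 4 of 4 lines, as 24.2% of the tested genes were. The blocked test called 2 of them, KLF9 and KLF13, against 10.4% of the tested genes called lower. Neither call held with LPN or EPN1 left out, in fits that called 22 and 8 genes of all tested. KLF14 and KLF16, which are also counted among the SIN3A partners, had log2 fold changes of 0.45 and -0.01 (adjusted p = 0.630 and 0.974 from edgeR).

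KLF4 marks maturing epithelium of gut and skin and is one of the factors used to reprogram cells to pluripotency. In complete medium KLF4 (ENSSSCG00000005437, chr1:248604817-248609574) had 189 CPM in Em, 93.5 in LPN, 75.7 in EPN1 and 149 in EPN2. In differentiation medium it had 213, 123, 170.0 and 264 CPM. The means were 127 ± 51.9 and 192 ± 60.2 CPM (SD, n = 4). All 4 lines were higher in differentiation medium, as 23.9% of the tested genes were. The log2 differences were 0.17 in Em, 0.39 in LPN, 1.17 in EPN1 and 0.83 in EPN2. In edgeR the log2 fold change was 0.60 ± 0.34 (SE) without regard to the line, with an adjusted p of 0.287, and 0.64 ± 0.19 blocked by line, with an adjusted p of 0.0632. The blocked DESeq2 fit put it past the threshold (0.66, adjusted p = 0.0101).

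KLF5, linked to dividing cells of intestinal crypts and basal epithelia, had the narrowest range of the 10 genes. KLF5 (ENSSSCG00000035101, chr11:45370009-45386673) was at 471 CPM in Em, 489.8 in LPN, 497 in EPN1 and 357 in EPN2 in complete medium. The values in differentiation medium were 403, 493, 485 and 389.7 CPM. EPN2 was the lowest line in both media, and the highest library was 1.39-fold above the lowest. The blocked fit gave a ratio of 0.979 between the media, with a 95% interval of 0.810 to 1.18 (adjusted p = 0.858 from edgeR). The ratio of KLF4 to its level in complete medium was 1.56 in the same fit, with an unadjusted interval of 1.13 to 2.15. The adjusted p of KLF4 there was 0.0632 from edgeR, and KLF4 and KLF5 were not compared by a test.

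KLF2 is best known from endothelium and resting lymphocytes, and its gene responds to the kinase MAPK7 through MEF2 factors. KLF2 (ENSSSCG00000038911, chr2:61270733-61273037) had 10.4 CPM in Em, 9.26 in LPN, 12.8 in EPN1 and 17.5 in EPN2 in complete medium. In differentiation medium it had 22.9, 16.1, 9.52 and 29.5 CPM. The gene was higher in Em, LPN and EPN2, by 0.75 to 1.14 on the log2 scale, and lower in EPN1, by 0.43. In edgeR its log2 fold change was 0.64 ± 0.36 (SE), with an adjusted p of 0.287, or 0.58 when blocked (adjusted p = 0.188). The endothelial markers KDR and PECAM1 were present at 3.36 to 33.8 and 7.96 to 17.6 CPM, while CDH5 was at or near 0.

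KLF6 is an injury-responsive factor that can raise the cell cycle inhibitor CDKN1A, and KLF7 is known from neurons and fat cells. KLF6 (ENSSSCG00000035212, chr10:66488445-66497830) had 166 CPM in Em, 170.5 in LPN, 237 in EPN1 and 161 in EPN2 in complete medium. It had 116, 134, 94.5 and 258 CPM in differentiation medium. EPN1 went from the highest value in complete medium to the lowest in differentiation medium, and EPN2 took the opposite course, so that the log2 differences were -1.33 and 0.68. Em and LPN lay between, at -0.52 and -0.35. The log2 fold change was -0.29 (95% interval -1.01 to 0.44, adjusted p = 0.593 from edgeR) and the block did not narrow it (-0.38, interval -1.19 to 0.43). CDKN1A itself had a log2 fold change of -0.41 (adjusted p = 0.534), with 3 lines lower and EPN2 higher. KLF7 (ENSSSCG00000029998, chr15:110282399-110380165) was at 28.1 CPM in Em, 33.7 in LPN, 33.8 in EPN1 and 30.1 in EPN2 in complete medium, and at 19.8, 40.9, 29.0 and 42.9 CPM in differentiation medium. The SD of KLF7 over the lines, 2.79 CPM in complete medium, was 10.8 CPM in differentiation medium, with LPN and EPN2 higher and Em and EPN1 lower. The log2 fold change of KLF7 was 0.08 (95% interval -0.48 to 0.63, adjusted p = 0.863 from edgeR).

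**Figure D2:**
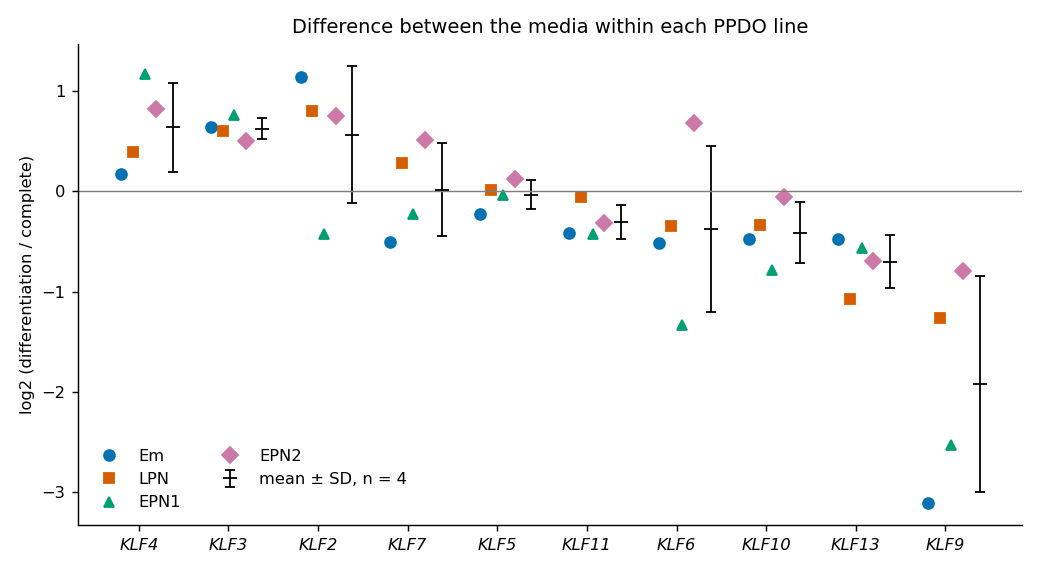
Log2 ratio of differentiation to complete medium (y axis) within each PPDO line for the 10 KLF genes (x axis), ordered by the mean. Colored symbols are lines and black bars the mean ± SD over 4 lines. The 4 lines of KLF3 lie together at 0.51 to 0.76, those of KLF9 spread from -0.79 to -3.11, and for KLF6 EPN2 stands on the other side of 0 from the other 3 lines.

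EPN2 in differentiation medium had the highest level of the 8 libraries for KLF2, KLF4, KLF6 and KLF7, and the lowest for KLF11. The share of all tested genes highest in that library was not counted. Em in differentiation medium had the lowest for KLF7, KLF9 and KLF10. EPN2 in differentiation medium was also the library with the lowest KRT7, KRT8 and KRT18, at 522, 425 and 45.2 CPM, and the part of this in the KLF values was not tested. Without the EPN2 library in differentiation medium the log2 fold changes of KLF2 and KLF4 were 0.38 and 0.41, that of KLF10 was -0.77 and that of KLF6 was -0.67. Those of KLF9 and KLF13 were -2.16 and -0.92 in that fit. Of the libraries in complete medium, leaving out EPN2 brought KLF10 to -0.11 and leaving out EPN1 brought KLF11 to -0.03.

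**Figure D3:**
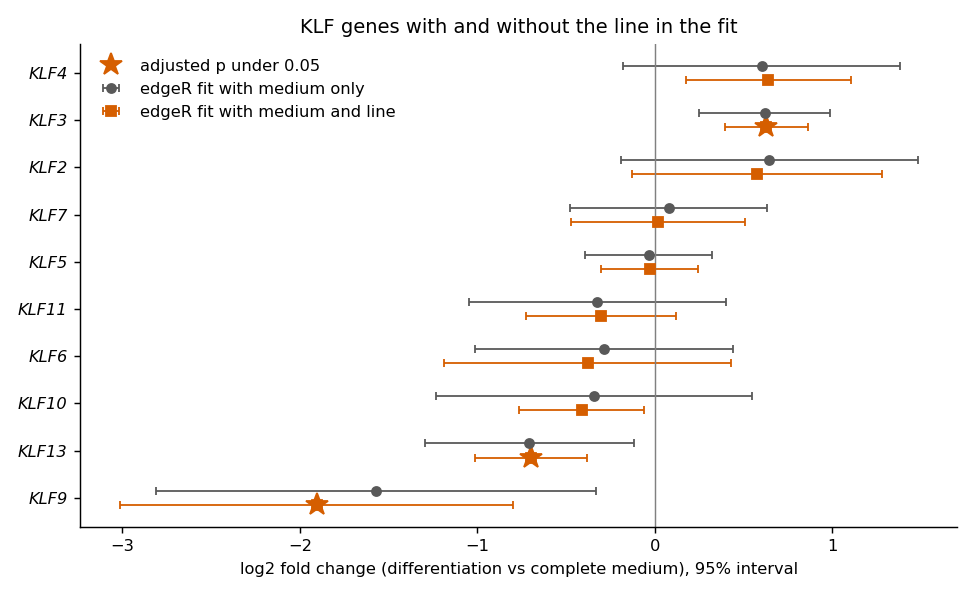
Log2 fold change between the media (x axis) with its 95% interval for each KLF gene (y axis), from the edgeR fit with the medium only (grey circles) and with medium and line (orange squares). A star marks an adjusted p under 0.05 over all 14475 genes. The line narrows the interval of KLF10 from a width between -1.23 and 0.54 to one between -0.77 and -0.06, and that of KLF6 stays wide.

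How much of a gene's variation lay between lines was read from the variance of log2 CPM over the 8 libraries. For KLF3 the medium accounted for 73.0% and the line for 25.5%. The medium took 62.2% for KLF9, 52.0% for KLF13 and 31.7% for KLF4. The line took 86.3% for KLF5, 82.1% for KLF11, 81.3% for KLF10 and 62.0% for KLF7. The line has more levels than the medium and so takes a larger share even where neither has an effect. For KLF5 it is a large share of a small variance, with an SD of log2 CPM of 0.19, the smallest of the 10 genes. KLF6 was the only member in which most of the variance, 61.5%, belonged to neither. Over all tested genes the median shares were 24.45% for the medium, 49.35% for the line and 14.6% for neither, and over the 10 KLF genes they were 20.8%, 52.8% and 12.2%. The upper quartile of the share of the medium was 51.2% over all tested genes and 46.9% over the KLF genes. For the share of the line it was 71.2% and 76.5%. The SD of log2 CPM over the libraries had a median of 0.50 for the KLF genes and 0.46 for all tested genes.

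**Figure D4:**
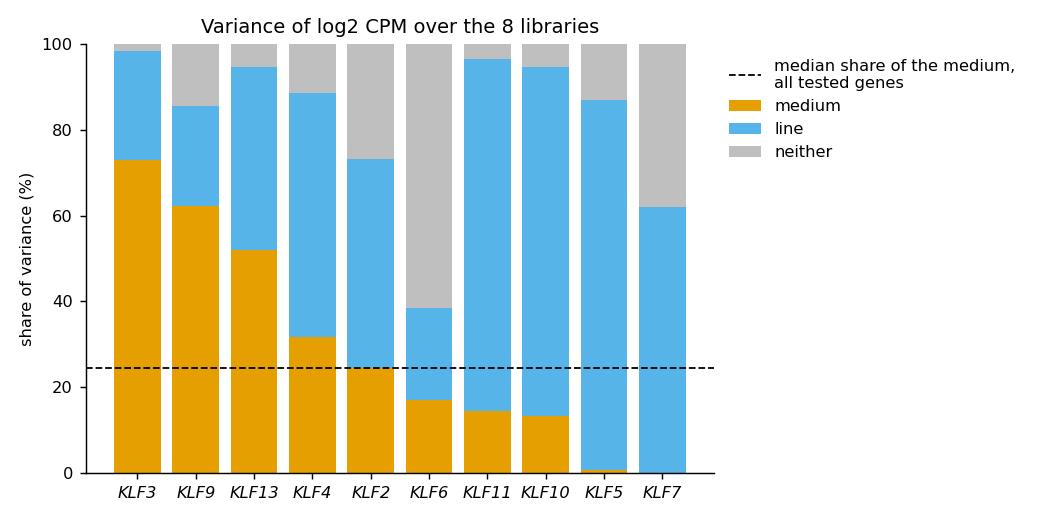
Share of the variance of log2 CPM over 8 libraries (y axis, percent) that belongs to the medium (orange), the line (blue) or neither (grey) for each KLF gene. The dashed line is the median share of the medium over all tested genes, 24.45%. KLF3, KLF9, KLF13 and KLF4 stand above it, at 73.0%, 62.2%, 52.0% and 31.7%. KLF2 is just above it, at 24.51%, and KLF5 and KLF7 have almost none. The upper quartile over all tested genes is 51.2%, close to KLF13.

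The lines were compared with an edgeR test of the line terms over both media. The test left 0 of the 10 genes with an adjusted p under 0.05, against 5.14% of the tested genes, and 5 were under 0.05 without adjustment, against 28.2%. The nearest was KLF10 (adjusted p = 0.0518), followed by KLF13 (0.105), KLF4 (0.129), KLF11 (0.138) and KLF3 (0.172). These 5 genes passed in the likelihood ratio test of DESeq2, which called 31.5% of the tested genes. KLF5 and KLF7 had an adjusted p of 0.289 and 0.364 in the edgeR test of the line. KLF2, KLF9, KLF10 and KLF13 had their highest level in EPN2 in both media, and KLF11 had it in EPN1. The lowest level in both media was in EPN2 for KLF5 and KLF11, in Em for KLF7, KLF9 and KLF10, and in EPN1 for KLF3. The share of all tested genes with such an order was not counted. Each line stands for 1 culture per medium, so age, animal and culture cannot be told apart in these differences.

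The likeness of 2 genes was measured as the root mean square difference of their log2 CPM, each centered on its mean over the 8 libraries. For KLF3, the member with the smallest adjusted p, the nearest of all tested genes were KLHDC4 (0.0547), BRMS1 (0.0655) and CDC42BPB (0.0759). They had log2 fold changes of 0.53, 0.61 and 0.65 between the media. CDC42BPB, a kinase that acts on the actin cytoskeleton, went from 104, 122, 93.2 and 146 CPM in Em, LPN, EPN1 and EPN2 in complete medium to 161, 207, 174 and 188 CPM. The nearest KLF gene to KLF3 was KLF7 (0.433), and 30.7% of the tested genes were nearer than that. The closest pair of KLF genes was KLF5 and KLF11 (0.329), with 28.2% of the tested genes nearer to KLF5 and 3.87% nearer to KLF11. KLF10 and KLF13 were also each other's nearest KLF gene (0.351), with 1.42% of the tested genes nearer to KLF10 and 2.67% nearer to KLF13.

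Other genes of the KLF and SP families were taken as a list of 17, of which 10 passed the expression filter. In edgeR 0 of these 10 had an adjusted p under 0.05 between the media, with or without the line. Over all tested genes the shares were 19.9% with the line and 6.97% without it. Without adjustment 0 passed, against 27.3% of all tested genes. With the line 1 passed without adjustment, SP4 (log2 fold change -0.84, adjusted p = 0.0693), against 39.7%. The median log2 fold change was 0.21, against 0.01 over all tested genes. SP6, a factor of teeth and skin, had the highest single value, 0.79 (adjusted p = 0.205). KLF16, SP1 and SP3 were at 0.14 or less in either direction. KLF8, which like KLF3 works through CtBP, did not pass the filter, having few counts outside LPN, EPN1 and EPN2 in complete medium, and it was singled out after its values were seen. It had 7 counts in Em, 104 in LPN, 121 in EPN1 and 128 in EPN2 in complete medium and 1, 1, 4 and 3 in differentiation medium. Fitted with no expression filter it was lower in differentiation medium, at -5.34 ± 0.99 (SE) on the log2 scale with an edgeR adjusted p of 0.0332, a size that depends on the prior count at such low counts. KLF12, which also binds CtBP, had a log2 fold change of 0.28 (adjusted p = 0.453).

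Of 16 genes for cofactors and turnover of KLF proteins, all were tested and 1 passed, near the 6.97% of all tested genes. With the block 1 passed too, against 19.9% of all tested genes. It was the ubiquitin ligase subunit VHL, known for the degradation of hypoxia-inducible factors (log2 fold change 0.70, adjusted p = 0.0423 from edgeR without the line). The VHL call held in 1 of the 8 fits that leave out a library, where the adjusted p ranged from 0.0312 to 0.117. SIN3A ranged from 74.4 to 93.0 CPM in complete medium and from 84.7 to 108 CPM after differentiation medium, a log2 fold change of 0.17 (adjusted p = 0.411). The CtBP genes CTBP1 and CTBP2 had log2 fold changes of -0.04 and 0.01 (adjusted p = 0.884 and 0.977). FBXW7 and WWP1, which mark KLF5 for degradation, had -0.05 and 0.02. The median of the list was 0.07.

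Among 18 genes known to act on KLF genes, 17 were tested. In edgeR 0 passed when the line was ignored, against 6.97% of all tested genes, and 7 were under 0.05 without adjustment, against 27.3%. Blocked by line, 3 of 17 passed, near the 19.9% of all tested genes. The thyroid hormone receptor gene THRB had 0.877 to 4.68 CPM in complete medium and rose to between 5.51 and 21.2 CPM (blocked log2 fold change 2.19, adjusted p = 0.0145 from edgeR). Both MAP2K5, the kinase upstream of MAPK7 (-0.44, adjusted p = 0.0455), and the factor gene MEF2C (-2.31, adjusted p = 0.0317) were lower. MEF2C had only 16 to 114 counts in complete medium and 6 to 38 in differentiation medium. MAPK7 itself was higher in 4 of 4 lines, as 23.9% of the tested genes were. It did not pass (blocked log2 fold change 0.37, adjusted p = 0.0604 from edgeR). The glucocorticoid receptor gene NR3C1 had a log2 fold change of 0.28 (adjusted p = 0.547) and EGR1, an immediate early gene, one of -0.07 (adjusted p = 0.935). The median of the list was 0.02.

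A list of 13 genes that are known to be controlled by a KLF had 12 tested, of which 1 was called higher and 2 lower, against 2.87% and 4.1% of all tested genes. SMAD7, an inhibitor of TGF-β signaling that KLF10 is known to repress, had 2.53 to 4.41 CPM in complete medium and rose to between 7.49 and 39.5 CPM (log2 fold change 2.50, adjusted p = 0.0315 from edgeR). CCND1, cyclin D1, and LAMA3, a laminin chain, fell (log2 fold change -1.52 and -1.56, adjusted p = 0.0399 and 0.0235). Of the 8 fits without 1 library, SMAD7 and LAMA3 passed in 4 each (adjusted p up to 0.0968 and 0.0816) and CCND1 in 2 (up to 0.113). With the block, CDH1, E-cadherin, also passed as higher (1.11, adjusted p = 0.0172) and CCNB1, cyclin B1, as lower (-1.48, adjusted p = 0.0165), which made 5 of 12 against 19.9% of all tested genes. PDX1, an activation target of KLF11, had a log2 fold change of -0.16 (adjusted p = 0.900). The median of the list was 0.00, and -0.39 with the block.

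Glucocorticoid and clock genes were listed because KLF9 and KLF10 belong to the clock-controlled genes. All 17 were tested, and PER2 passed as lower (log2 fold change -2.20, adjusted p = 0.0189 from edgeR), which held in 4 of the 8 fits without 1 library (adjusted p up to 0.0734). A count of 1 in 17 is near the 6.97% of all tested genes. Blocked by line, DBP (-1.36, adjusted p = 0.0230), BHLHE41 (-1.53, adjusted p = 0.0156) and FKBP5 (-0.86, adjusted p = 0.0391) also passed as lower. BMAL1, listed as ARNTL in the table, passed as higher (1.02, adjusted p = 0.0263), which made 5 of 17 against 19.9% of all tested genes. BHLHE40 had 436 CPM in Em, 734 in LPN, 579 in EPN1 and 499 in EPN2 in complete medium, and 33.8, 270, 120 and 331 CPM in differentiation medium. BHLHE40 passed in neither edgeR fit (adjusted p = 0.143, or 0.0534 with the block), and it was singled out after its values were seen. TSC22D3, a glucocorticoid-induced gene, had a log2 fold change of 0.40 (adjusted p = 0.569), and NR1D1 one of -1.11 (adjusted p = 0.256). The median of the list was -0.08. The hour at which the cultures were collected was not given in the sources used here.

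**Figure D5:**
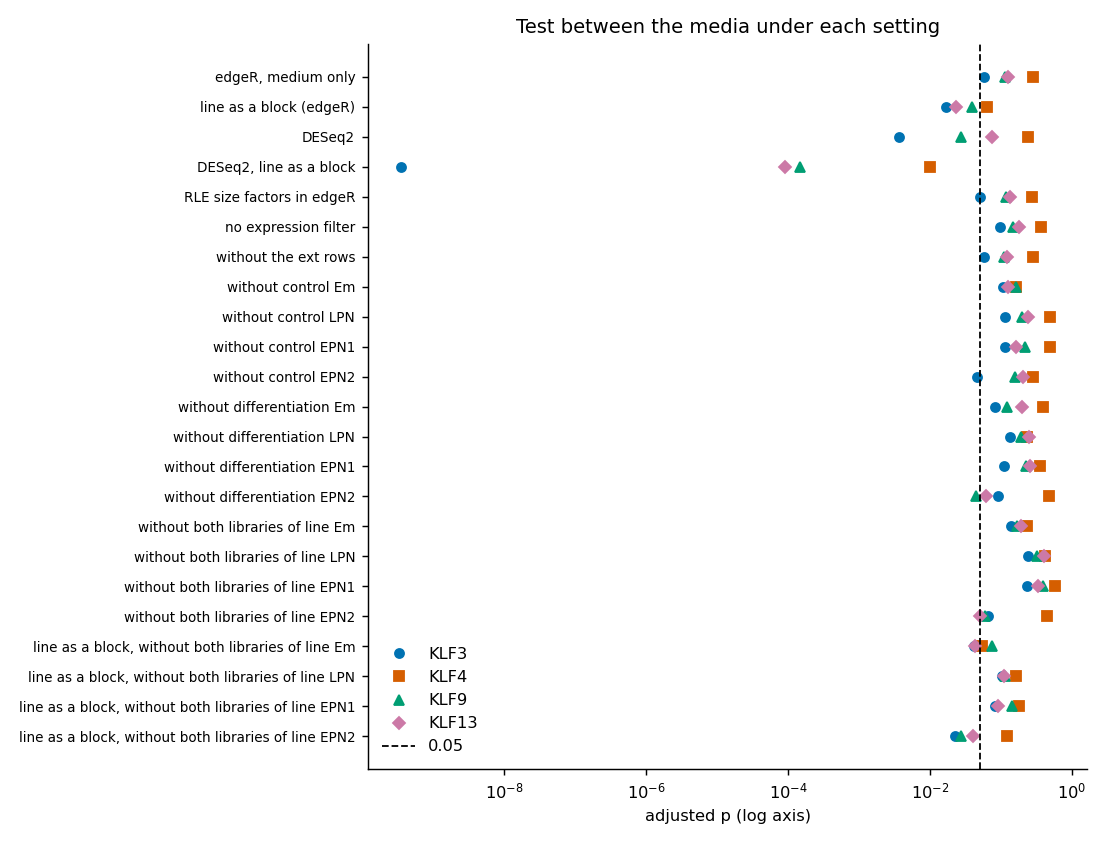
Adjusted p of KLF3, KLF4, KLF9 and KLF13 between the media (x axis, log scale) under each setting (y axis), with a dashed line at 0.05. KLF3 is at 0.0574 with the medium only and lowest, at 3.5e-10, in DESeq2 with the line as a block. None of the 4 genes passes when either LPN or EPN1 is left out. The blocked fits without LPN and without EPN1 called 22 and 8 of all tested genes.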

How the data were processed

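Libraries were made from poly(A) RNA. The authors ran salmon within nf-core on a pig genome with their own annotation, and the table they deposited holds estimated counts. Of its values above 0, 78.7% were whole numbers. Whether they were scaled for gene length was not tested. The paper states that its own test used counts scaled by gene length, so its input may differ from the counts used here. The submitters' processing notes name Sscrofa11.1, and positions of the genes are from the RefSeq table of that assembly, in which all 10 symbols matched. The 26046 rows with the suffix -iso and the 25770 with -ext, which held 2.58% of counts, were summed per gene and rounded. The 8 rows of reporter transgenes (0.00142% of counts) were left out. Groups came from the sample titles and lines from the table header, since no label ties lines to replicate numbers. The same lines were grown in both media, and libraries of the same line deviated together (r = 0.400 to 0.657 over 4 pairs, against -0.479 to 0.242 over 12 pairs of different lines), so the line served as the block.

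Counts were tested in R 4.3.3 with edgeR 4.0.16 (TMM, filterByExpr with a minimum count of 10, quasi-likelihood test, Benjamini-Hochberg over 14475 genes), with DESeq2 1.42.0 as an alternative. SE were derived from the F statistics. Tests were checked on simulated data. Alternatives were the line as a block, RLE scaling, no filter, no -ext rows, and leaving out each library or line. The blocked fits without a line were added after seeing the data. The KLF genes and lists were chosen with earlier results of these data known. All 10 KLF genes are named, up to 6 called genes of each other list, marker genes, and the 3 genes most like the KLF gene with the smallest adjusted p. Genes of the lists that passed no test were named after their values were seen. Sequences of the genes were not used here.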

Additional observations from a re-analysis of the deposited data

Results flagged for a closer look

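In a group of 4 libraries, 1 value stood far from the others in 2 of 20 groups checked, where chance gives about 1 in 20. KLF6 in EPN1 in complete medium, at 237 CPM, lay apart from the other lines at 161 to 170.5 CPM. KLF13 in EPN2 in differentiation medium, at 114 CPM, lay apart from 67.5 to 71.5 CPM in the other lines.

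For 4 genes the log2 differences of the lines had both signs. Those of KLF5 were small, at 0.011 in LPN and -0.034 in EPN1. KLF2 was lower in differentiation medium in EPN1 (log2 difference -0.43) and higher in the other 3 lines. KLF6 was higher in EPN2 (0.68) and lower in the other 3. KLF7 was higher in LPN (0.28) and EPN2 (0.51) and lower in Em and EPN1, and KLF5 was higher in LPN (0.011) and EPN2 (0.13) and lower in Em and EPN1. These differences between lines were not tested, since each line has 1 library per medium.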

How the results depend on the processing

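The count of KLF genes past the threshold between the media was 0 in the edgeR fit without the line. It was 3 with the line as a replicate block, 2 in DESeq2 without and 4 in DESeq2 with the block. In blocked fits added after seeing the data it was 2 when Em was left out, 3 when EPN2 was, and 0 when LPN or EPN1 was. Over all tested genes those fits called 1730, 2989, 22 and 8 in the same order. Fits that omit 1 library gave 0 to 1, with KLF3 past the threshold without EPN2 in complete medium (edgeR adjusted p = 0.0461) and KLF9 without EPN2 in differentiation medium (0.0445). RLE scaling, no filter and no -ext rows gave 0. Between the lines the count was 0, but 1 (KLF10) with no filter, 5 in the DESeq2 likelihood ratio test and 0 to 1 without 1 library. Of the 10 genes, 7 kept their direction under all 22 alternatives. Without 1 library KLF5 ranged from -0.13 to 0.031, KLF7 from -0.069 to 0.26, KLF10 from -0.77 to -0.11 and KLF11 from -0.54 to -0.03. KLF5 was at 0.053 without both libraries of Em, and 0.059 with the block. KLF7 was at -0.0051 without LPN and -0.090 without EPN2, and with the block at -0.073 and -0.15. KLF6 was at 0.032 without EPN1. The cause was not tested. With 4 lines the blocked 95% interval of KLF6 ran from -1.19 to 0.43 on the log2 scale.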
